A study of Mus musculus with 4 samples.

Results

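Cells given the working label of mesenchyme were described in the presumptive knee of mouse embryos. They held detected transcripts of Sfrp2, a secreted protein that modulates Wnt signaling. None were detected of Gdf5, the growth factor that marks the forming joint. Cells were kept when they held 200 to 6000 detected genes and at most 10% of their unique molecular identifiers (UMIs) from mitochondrial genes. A kept cell belonged to this mesenchyme when it held at least 2 UMIs of Sfrp2, at least 2 of Cxcl14, Tbx18 and Fbln5 together, no UMI of Gdf5, at most 3 of Dcn, Lum and Ogn together and at most 2 of Scx, Tnmd and Mkx together. The rule selected 2130 of 44320 kept cells, or 4.81%. Because the cells were selected on UMIs of these 11 genes, levels of those genes only describe the selection.

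The joint interzone is a band of condensed mesenchyme that forms where the cartilage template of the limb will be divided into separate bones, and Gdf5 is its best known marker. Limb mesenchyme around it gives rise to fibroblasts, ligament, capsule and perichondrium, and signals that cross between such tissues include Wnt proteins and their secreted inhibitors, Bmp and Tgfβ family ligands, ephrins and retinoic acid. Cxcl14 encodes a chemokine, Tbx18 a T-box transcription factor, Fbln5 a protein of elastic fibers and Epha7 a receptor tyrosine kinase for ephrins.

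The study asked how glucose uptake takes part in the formation of the joint. Presumptive knee regions were dissected from hindlimb cartilage templates that had been rolled on paper to remove soft tissue, dissociated with collagenase and profiled by droplet single-cell RNA sequencing with a 3′ kit, with 1 library per condition. The 2 control libraries, from embryos of E13.5 and E14.5, were titled WT and labelled No cre, and the labels name no other allele for them. The other two, from E14.5, were labelled Prx1cre;Glut1f/f;Glut3f/+ (titled G1KO) and Prx1cre;Glut1f/f;Glut3f/f (titled dKO), where Prx1cre drives recombination in limb mesenchyme and the floxed genes encode the glucose transporters Glut1 (Slc2a1) and Glut3 (Slc2a3). The number of embryos pooled in a library was not stated, no condition had a replicate, and so conditions were not tested against one another. Throughout, values of 4 libraries follow the order E13.5 control, E14.5 control, the library labelled G1KO and the library labelled dKO.

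The libraries held 12769, 9707, 11690 and 11602 barcodes with 100344565, 84188147, 97110697 and 91574038 UMIs, and 12446, 9305, 11264 and 11305 cells were kept. The mesenchymal cells had median depths of 7095, 6478, 6006 and 5509 UMIs, so their depth was lowest in the library labelled dKO. Between 24 and 37 barcode sequences were shared by any pair of libraries, and 1 barcode was shared among the selected cells, between the E13.5 control and the library labelled G1KO. Doublets were kept, and no doublet caller was run.

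Before other results, the deleted genes were read in the selected cells of every library. Levels are UMIs summed over the cells of a group, scaled to 1000000 UMIs of that group (CPM). Slc2a1 (ENSMUSG00000028645, chromosome 4, 119108711 to 119137983, GRCm38) stood at 31.1, 32.6, 185 and 221 CPM, 5.65-fold higher in the library labelled G1KO than in the E14.5 control (log2 ratio 2.50, 95% interval 2.19 to 2.83) and 6.73-fold higher in the library labelled dKO (2.75, 2.44 to 3.09). The tags of the deleted gene were thus higher, not lower, in both libraries labelled as its deletion. The 3′ tags of this kit may lie outside the deleted part of the gene, so the level of functional transcript could not be read. Slc2a3 stood at 5.01, 5.15, 8.15 and 1.72 CPM. Its value in the library labelled G1KO came to 72.4% from 1 cell, and the value in the library labelled dKO rests on 4 UMIs, so a change of Slc2a3 was not detectable at this depth.

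The rise of Slc2a1 tags reached every other group of cells that was read in the same libraries. Slc2a1 stood at 46.6, 31.9, 197 and 123 CPM in Gdf5-positive neighbors, at 40.6, 68.6, 287 and 367.5 CPM in Dcn-positive cells (both defined where they are compared), at 25.2, 31.1, 213 and 339 CPM in cells marked by macrophage genes and at 60.4, 70.1, 134 and 215 CPM in cells marked by endothelial genes. Macrophages and endothelium are not limb mesenchyme, so the higher tags of both mutant libraries were not limited to the lineage in which Prx1cre is active. Whether free RNA in the droplets has a part in this was not tested.

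Genes of the sex chromosomes also separated the libraries. Xist, transcribed from the inactive X chromosome, stood at 799, 0, 1076 and 1058 CPM in the selected cells, and Ddx3y, a gene of the Y chromosome, at 22.7, 91.1, 0 and 0 CPM. The E13.5 control held both, the E14.5 control only the Y-linked gene and both mutant libraries only Xist. Sex and genotype cannot be told apart among the E14.5 libraries, and sex-linked genes were left out of the comparisons of ages and of genotypes.

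The label of the cells was first read against genes that the rule did not use. Epha7 (ENSMUSG00000028289, chromosome 4, 28813131 to 28967499), the only one of the 5 proposed markers outside the rule, stood at 122, 98.6, 110.2 and 132 CPM in the selected cells and at 78.2, 33.7, 38.2 and 29.7 CPM in all other kept cells of each library. The level was higher in the selected cells in every library. An Epha7 UMI was found in 52.3%, 46.1%, 48.0% and 47.9% of the selected cells, against 11.8%, 7.58%, 5.68% and 5.33% of macrophage-marked cells, whose median depths were 1947, 5283, 9545 and 7145 UMIs. The share in the selected cells lay above this background in each library, including both mutant libraries, where the macrophage-marked cells were the deeper group. Epha7 did not separate them from Gdf5-positive neighbors, which held 209, 122, 125 and 157.5 CPM.

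Genes of limb mesenchyme were present throughout. Prrx1, a homeobox gene of limb mesenchyme and the source of the Prx1cre promoter, stood at 338, 216, 173 and 191 CPM, and all 10 genes of the limb mesenchyme list were detected in each library, with summed levels of 3281, 5062, 4712 and 4631 CPM. The same list summed to 5197, 4639, 5138 and 4355 CPM in Dcn-positive cells and to 4362, 4393, 5033 and 4553 CPM in endothelial-marked cells. Its sum thus did not set the selected cells apart from these groups. In every library it was lower in Gdf5-positive neighbors (1959, 4066, 3023 and 3506 CPM) and in macrophage-marked cells (1864, 1943, 2175 and 1674 CPM). Cells beside the joint cannot be told from others once a tissue is dissociated, so the position named in the working label was not tested. The cells are called Sfrp2-positive Gdf5-negative mesenchyme as a working name. Sfrp2 and Gdf5 in it come from the rule, while the word mesenchyme comes from the label and was not tested. Markers of other lineages were present at different levels. Erythroid markers summed to 1016, 2187, 4224 and 4982 CPM and chondrocyte genes to 1534, 3067, 3768 and 4036 CPM, and muscle markers are given at the end. Epidermal markers summed to 27.5, 12.7, 15.2 and 22.8 CPM, with Epcam the most abundant at 24.4, 8.59, 9.56 and 16.8 CPM and Krt14, Krt5 and Cdh1 at 0 in the 4 libraries. Macrophage markers summed to 5.01, 16.8, 3.66 and 1.72 CPM, with Fcer1g, Tyrobp, Fcer1g and Csf1r the most abundant and C1qa at 0 in the E13.5 control and in both mutant libraries.

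The genes of the rule vary within the selected cells. Sfrp2 stood at 793, 1316, 962 and 909 CPM, with a median of 5, 8, 6 and 5 UMIs per cell. Tbx18 stood at 152, 79.0, 96.2 and 108 CPM and Fbln5 at 70.1, 160.5, 118 and 112 CPM, while Cxcl14 stood at 240.0, 220.2, 216 and 200 CPM. Among the genes that admitted the cells, Tbx18 was thus highest at E13.5 and Fbln5 highest in the E14.5 control, and Cxcl14 varied least. On the thresholds themselves, 204, 51, 80 and 57 selected cells held exactly 2 UMIs of Sfrp2, with 104.9, 59.3, 102.5 and 85.2 CPM of Epha7. The 293, 64, 110 and 86 cells that failed for having 1 held 93.6, 45.7, 65.5 and 58.0 CPM. Cells that failed only by having 1 UMI of Gdf5 numbered 224, 115, 114 and 71, and they held Epha7 at 162, 110.5, 122 and 125 CPM, within or above the range of the selected cells. For the summed Cxcl14, Tbx18 and Fbln5, 375, 151, 216 and 180 cells lay just inside at 2 UMIs (Epha7 104.9, 96.8, 83.5 and 117 CPM) and 623, 321, 457 and 423 just outside at 1 (101, 80.8, 63.2 and 67.7 CPM). For the summed Dcn, Lum and Ogn, 73, 26, 49 and 40 cells lay at 3 UMIs (Epha7 108, 118, 154 and 126 CPM) and 37, 23, 39 and 29 at 4 (91.4, 74.2, 88.5 and 115 CPM). For the summed Scx, Tnmd and Mkx, 104, 24, 35 and 21 cells lay at 2 UMIs (Epha7 102, 108, 113 and 113 CPM) and 54, 18, 17 and 8 at 3 (137, 72.3, 74.5 and 84.0 CPM). Cells just outside each limit held Epha7 too. At the Gdf5 limit other genes did differ, and Aspn stood at 20.4, 51.9, 57.4 and 63.7 CPM inside and at 9.64, 10.5, 15.2 and 22.2 CPM outside, and Osr2 at 72.9, 124, 112 and 65.0 CPM inside and at 134, 171.5, 170.5 and 126 CPM outside.

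Sfrp2-positive Gdf5-negative mesenchyme made up 7.87% of kept cells in the E13.5 control (979 of 12446, exact 95% interval 7.40 to 8.35), 3.94% in the E14.5 control (367 of 9305, 3.56 to 4.36), 4.05% in the library labelled G1KO (456 of 11264, 3.69 to 4.43) and 2.90% in the library labelled dKO (328 of 11305, 2.60 to 3.23). The intervals are Clopper-Pearson intervals and cover counting error only. The share at E13.5 lay above all 3 shares of E14.5, and the share of the library labelled dKO lay below the other two of that age. With every cell thinned to 4000 UMIs the shares were 5.67%, 3.11%, 2.85% and 1.81%, after 2483, 1310, 2000 and 2416 cells too shallow for thinning, among them 80, 42, 60 and 73 selected cells, had been left out. The order of the E13.5 control above the E14.5 control and of the library labelled dKO below the rest was kept, while the library labelled G1KO moved from above to below the E14.5 control.

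The rule was also read without its limit on Gdf5. Among cells that passed every other limit, 62.0%, 58.5%, 64.9% and 75.1% held no Gdf5 UMI (intervals 59.6 to 64.4, 54.6 to 62.4, 61.2 to 68.4 and 70.7 to 79.1). Thinned to 4000 UMIs, the same shares were 70.6%, 70.1%, 76.3% and 82.7%. The Gdf5-free share was highest in the library labelled dKO at either depth, and it rose in every library when depth was lowered. At these depths a cell without a Gdf5 UMI is not shown to lack the transcript.

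**Figure D1:**
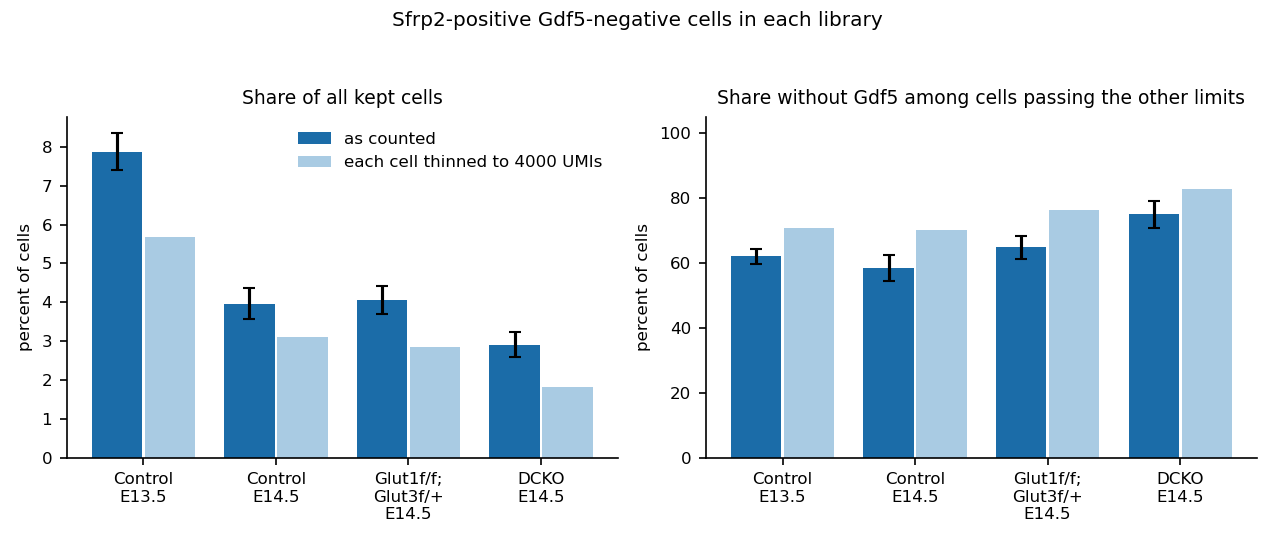
Share of kept cells that were Sfrp2-positive Gdf5-negative mesenchyme in each library, in percent, at full depth with exact 95% intervals and after thinning each cell to 4000 UMIs. The E13.5 control was highest at 7.87% and the library labelled dKO lowest at 2.90%.

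The first comparison set the mesenchyme beside cells that passed every limit of the rule except that they held at least 2 UMIs of Gdf5, called Gdf5-positive neighbors here, to describe what else differs between them. Aspn, Twist2, Egfl6, Slit3 and Crabp1 were higher in the Gdf5-negative cells in all 4 libraries, and Sulf1, Barx1, Tgfbi and Robo1 were lower. Of 8302 genes with a mean of at least 10 CPM, 68 (0.819%) were at least 1.5-fold higher in every library and 66 (0.795%) at least 1.5-fold lower, with a median log2 ratio of −0.02 over all genes tested. Genes of the rule were left out. Few genes thus differed in every library. With TMM factors the split was 81 higher and 56 lower, and at 2-fold 27 and 18.

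Aspn (ENSMUSG00000021388, chromosome 13, 49544443 to 49567565), which encodes the small leucine-rich proteoglycan asporin, stood at 20.4, 51.9, 57.4 and 63.7 CPM in the mesenchyme and at 2.21, 2.84, 1.46 and 8.01 CPM in the neighbors. It was 8.78-, 16.3-, 31.5- and 6.83-fold higher (log2 ratios 3.13, 4.03, 4.98 and 2.77, with 95% intervals that reached down to 2.25, 2.81, 3.42 and 1.42). No other gene with a mean of at least 20 CPM had so large a smallest ratio over the libraries. Twist2, a basic helix-loop-helix factor of mesenchyme, stood at 133, 22.7, 25.3 and 47.3 CPM against 31.2, 4.25, 4.38 and 10.7 CPM. Its level was several times higher at E13.5 than later in either group, and it lay above the neighbors at both ages.

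Other genes named by the same measure differ in kind. Egfl6, a secreted protein with EGF-like domains, stood at 109, 118, 103.5 and 123 CPM against 16.2, 33.3, 19.0 and 18.7 CPM. Slit3, a guidance ligand, stood at 41.7, 35.1, 31.2 and 37.0 CPM against 10.1, 6.38, 8.03 and 10.7 CPM. Robo1, a receptor for Slit ligands, ran the other way, with 48.4, 63.2, 61.9 and 52.0 CPM against 151, 142, 136 and 109.5 CPM. Slit3 was thus higher in the Gdf5-negative cells and Robo1 in the Gdf5-positive neighbors of each library. Other Slit ligands and their receptors were not read as a list, and signaling between these cells was not tested. Ctsk, which encodes the collagen-degrading protease cathepsin K, stood at 21.3, 34.0, 38.8 and 44.7 CPM against 3.92, 11.3, 11.0 and 8.01 CPM. Ebf2, a transcription factor, stood at 44.1, 26.5, 36.0 and 32.7 CPM against 14.2, 7.09, 0.730 and 10.7 CPM, and Akap12, an anchor for protein kinase A, at 33.4, 74.6, 66.6 and 129.9 CPM against 13.3, 20.6, 18.2 and 10.7 CPM. In the library labelled G1KO the Ebf2 value of the neighbors is 1 UMI, with a log2 ratio of 5.04 and an interval of 3.12 to 10.94.

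Interzone genes were lower in the mesenchyme beyond the Gdf5 that the rule set to 0. Of 8 tested interzone genes, 6 were called lower (Osr2, Creb5, Tgfbi, Erg, Htra1 and Sulf1) and none higher, with a median log2 ratio of −1.20 against −0.02 over all genes tested. The study named Osr2, Creb5, Tgfbi, Htra1 and Sulf1 for its cluster of Gdf5-expressing cells in the same control libraries. Their lower levels in cells selected for no Gdf5 are therefore no independent support. Sulf1, an enzyme that trims sulfate groups from heparan sulfate, stood at 106.5, 198, 173 and 144 CPM against 326.5, 552, 486 and 315 CPM. Osr2, a zinc finger factor of joint tissue, stood at 72.9, 124, 112 and 65.0 CPM against 308, 219.7, 189.7 and 152 CPM, and Creb5, a bZIP factor, at 148, 174.5, 186 and 160.0 CPM against 378, 338, 392 and 339 CPM. Transcripts of both factors were therefore fewer but still detected. The interzone list summed to 1012, 1753, 1390 and 1091 CPM in the mesenchyme. It summed to 237, 284, 219 and 194 CPM in macrophage-marked cells and to 402, 333, 462 and 328 CPM in endothelial-marked cells. Barx1, a homeobox gene, stood at 55.0, 139, 122 and 80.0 CPM against 270.3, 299, 279 and 224 CPM, and Tgfbi, an extracellular protein induced by Tgfβ, at 101, 194, 165 and 115 CPM against 258, 446, 413 and 246 CPM. The remaining named genes were lower as well. Rasl10a, Plxna4, Myoz1, Pdlim3, Scrg1 and Smoc1 had smallest ratios of 3.06-, 2.62-, 2.50-, 2.34-, 2.28- and 2.28-fold, and Plxna4, a subunit of semaphorin receptors, stood at 4.17, 14.4, 15.2 and 9.46 CPM against 27.0, 39.7, 43.8 and 24.0 CPM.

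Genes that carry or make retinoic acid were on the other side. Of 8 tested genes of the retinoic acid list, 3 were called higher in the mesenchyme and none lower, with a median of 0.60. Crabp1, a cytoplasmic carrier of retinoic acid, stood at 450.0, 250.5, 256 and 357 CPM against 114, 44.6, 39.4 and 131 CPM, and Crabp2, the second carrier, at 421, 201, 227 and 276 CPM against 218, 94.96, 87.6 and 125.5 CPM. Aldh1a2, the enzyme that makes retinoic acid in the limb, stood at 41.7, 8.93, 14.9 and 9.89 CPM against 13, 2.13, 2.19 and 0 CPM. The carriers and the enzyme were thus higher in the Gdf5-negative cells in all 4 libraries, though Aldh1a2 was sparse in the E14.5 neighbors, which held 3, 3 and 0 UMIs. For the E14.5 control and the library labelled G1KO its log2 ratios were 1.88 (0.36 to 4.44) and 2.56 (1.14 to 5.09).

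Among secreted Wnt inhibitors, 2 of 6 tested were higher and 1 lower. Dkk2 stood at 31.0, 39.2, 42.7 and 34.4 CPM against 4.91, 6.38, 2.92 and 10.7 CPM, and Sostdc1, an antagonist of Bmp and Wnt ligands, at 30.2, 30.2, 16.6 and 16.8 CPM against 8.34, 7.09, 4.38 and 5.34 CPM. Dkk3, a divergent family member, stood at 12.9, 76.6, 52.0 and 36.6 CPM against 35.6, 139.6, 104 and 104 CPM. Rspo3, which amplifies Wnt signaling, was the only one of 14 tested genes of Wnt reception that passed, at 85.1, 55.7, 68.3 and 58.9 CPM against 32.9, 23.4, 19.7 and 5.34 CPM. Inhibitors and an amplifier of the Wnt pathway were therefore both higher, and none of 6 tested Wnt target genes was called. The value of Rspo3 in the neighbors labelled dKO and that of Sostdc1 there each rest on 2 UMIs, with log2 ratios of 3.15 (1.58 to 6.52) and 1.35 (−0.30 to 4.75).

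Other signaling lists gave single genes. Gdf10, a Bmp family ligand, was the 1 of 12 tested Bmp genes called, at 33.6, 39.9, 45.3 and 52.0 CPM against 9.57, 17.0, 8.03 and 26.7 CPM. In the hedgehog list 2 of 8 tested genes were lower, the effector Gli3 at 66.8, 92.8, 84.4 and 64.5 CPM against 123, 151, 131 and 112 CPM and the coreceptor Cdon at 29.1, 80.4, 76.5 and 52.5 CPM against 93.7, 162, 136.5 and 109.5 CPM. Both are on the receiving side of the pathway. In the Eph and ephrin list, Efnb1 was higher and Efnb2 lower of 13 tested, and Efnb2 stood at 33.2, 63.6, 54.5 and 51.6 CPM against 101, 116, 113 and 93.5 CPM. Runx2, a factor of bone-forming cells, was higher at 53.3, 12.4, 11.5 and 11.2 CPM against 11.3, 2.13, 1.46 and 2.67 CPM, where the last 3 are 3, 2 and 1 UMIs with log2 ratios of 2.34 (0.88 to 4.88), 2.68 (1.04 to 6.07) and 1.51 (−0.54 to 7.42). No gene of the glycolysis (13 tested), oxidative phosphorylation (20), elastic fiber (14), collagen (12), S phase (15) or G2M (15) lists was called, with medians between −0.23 and 0.06.

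Several limits apply. The neighbors were deeper than the mesenchyme, with median depths of 8750, 8573, 9164 and 8504 UMIs, and only 38 of them came from the library labelled dKO. Among cells of 4000 to 10000 UMIs, 38 of the 68 higher genes and 34 of the 66 lower genes remained. Without that library 115 genes were called higher and 119 lower, and with both control libraries alone 152 and 171. Hbb-bs, a globin gene that the naming rule also placed among the higher genes, came mostly from few cells, and its mean log2 ratio was −0.08 once cells with transcripts of other lineages or more than 4500 genes had been left out.

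**Figure D2:**
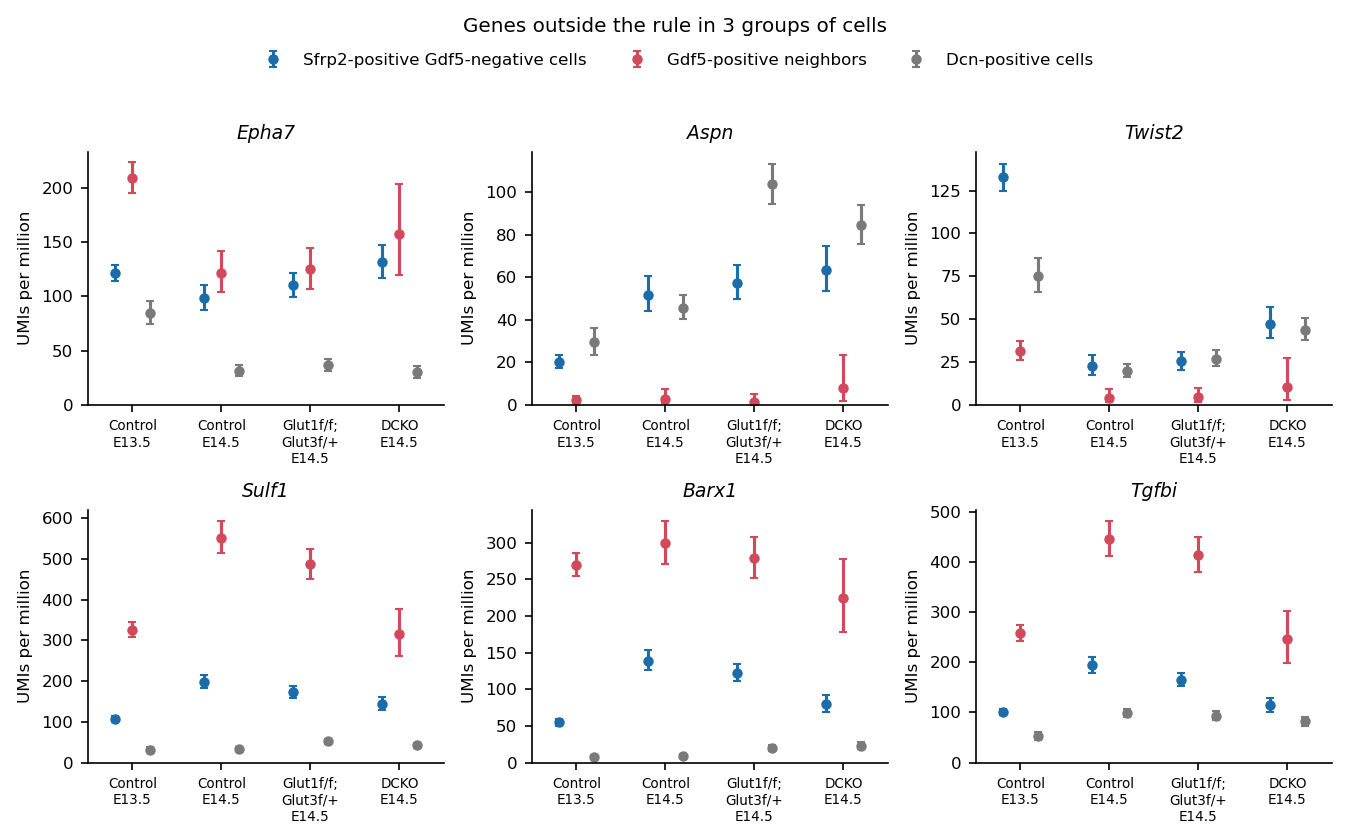
Levels of Epha7, Aspn, Twist2, Sulf1, Barx1 and Tgfbi in CPM in the mesenchyme, in Gdf5-positive neighbors and in Dcn-positive cells of each library, with 95% Poisson intervals. Aspn and Twist2 were higher in the mesenchyme than in Gdf5-positive neighbors of every library, and Sulf1, Barx1 and Tgfbi lower.

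The second comparison set the mesenchyme beside connective tissue cells that held at least 10 UMIs of Dcn, Lum and Ogn together, no Gdf5 and at most 2 UMIs of Scx, Tnmd and Mkx, with any level of Sfrp2. There were 310, 371, 354 and 288 of these Dcn-positive cells, with median depths of 7652, 13322, 10220 and 12036 UMIs. Sulf1, Barx1, Foxp1, Htra1 and Tm4sf1 were higher in the mesenchyme in all 4 libraries, and genes of cartilage such as Comp, Matn3 and Ihh were lower, but these turned to mean log2 ratios of 2.21, 2.81 and 1.08 once Dcn-positive cells with more than 3 UMIs of Acan, Matn1 and Col9a1 had been left out. Of 8211 genes tested, 77 (0.938%) were called higher and 84 (1.02%) lower, with a median of 0.07. Without the E13.5 control 361 and 222 were called, and in the control libraries alone 149 and 135. With levels averaged over cells in place of summed UMIs the split was 81 higher and 57 lower, and with TMM factors the median of all genes tested moved from 0.07 to −0.03.

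Some genes that were low beside the Gdf5-positive neighbors were high beside the Dcn-positive cells. Of 8 tested interzone genes, Htra1 and Sulf1 were called higher, and Osr2, Creb5, Tgfbi and Erg were not called. Sulf1 stood at 106.5, 198, 173 and 144 CPM in the mesenchyme and at 31.2, 33.9, 52.1 and 42.3 CPM in Dcn-positive cells. Barx1 stood at 55.0, 139, 122 and 80.0 CPM against 7.38, 9.24, 20.0 and 23.1 CPM, and Htra1, a secreted serine protease, at 40.2, 307, 165 and 103 CPM against 12.4, 22.1, 28.2 and 20.2 CPM. For these genes the mesenchyme lay between both groups in every library. Dkk3 lay between them too, at 12.9, 76.6, 52.0 and 36.6 CPM against 6.04, 9.05, 9.48 and 14.7 CPM in Dcn-positive cells.

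Transcription factors were among the higher genes. Foxp1, a forkhead factor, stood at 165, 412, 325 and 318 CPM against 50.6, 45.1, 66.8 and 70.9 CPM. Foxc1, another forkhead factor, stood at 84.4, 93.1, 88.6 and 97.2 CPM against 17.8, 44.4, 49.1 and 49.3 CPM, and Tbx4, the T-box factor of the hindlimb, at 38.8, 40.2, 37.1 and 39.6 CPM against 21.1, 12.9, 16.4 and 15.7 CPM. The mesenchyme held similar levels of Tbx4 and of Foxc1 in all 4 libraries, so their differences followed the level in Dcn-positive cells. Among signals, Bmp4 was higher at 47.7, 65.6, 42.5 and 36.1 CPM against 26.2, 17.4, 11.8 and 20.2 CPM, and Epha5 at 54.9, 72.5, 77.9 and 67.1 CPM against 30.9, 27.2, 40.1 and 39.1 CPM. Bmp7 and the Bmp antagonist Nog were lower of 13 tested Bmp genes (Nog turned to a mean log2 ratio of 0.69 among cells of 4000 to 10000 UMIs and of 2.37 against Dcn-positive cells poor in cartilage transcripts), Ltbp1 and Ltbp3 higher of 15 tested elastic fiber genes, and Col16a1 the only one lower of 12 collagen genes. Epha7 stood at 84.5, 31.3, 36.4 and 30.1 CPM in Dcn-positive cells, under the mesenchyme in each library, but did not pass 1.5-fold at E13.5.

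Cartilage genes were among the lower ones. Of 9 tested chondrocyte genes, 4 were called lower (Acan, Matn1, Col9a1 and Hapln1), with a median of −1.45 against 0.07 over all genes tested. Acan, the large proteoglycan of cartilage, stood at 41.3, 166, 228 and 224 CPM in the mesenchyme and at 108, 891, 772 and 759 CPM in Dcn-positive cells. Comp, a cartilage matrix protein, stood at 2.74, 14.4, 41.1 and 31.8 CPM against 35.9, 238, 232 and 249.6 CPM, Ihh, the hedgehog ligand of maturing chondrocytes, at 5.13, 0.344, 1.12 and 0.430 CPM against 46.3, 58.5, 50.8 and 41.8 CPM, and Panx3, a channel of hypertrophic chondrocytes, at 2.15, 1.03, 1.12 and 1.29 CPM against 33.2, 62.7, 68.9 and 47.0 CPM. Dcn-positive cells taken by this rule therefore included cells rich in cartilage transcripts. When Dcn-positive cells with more than 3 UMIs of Acan, Matn1 and Col9a1 were left out, the chondrocyte list turned to a median of 3.04 and Acan to a mean log2 ratio of 3.72, while 36 of the 77 higher genes remained and 8 of the 84 lower ones. That alternative selects on 3 of the 9 list genes. Dcn-positive cells were also deeper, and among cells of 4000 to 10000 UMIs the chondrocyte median was −0.08, and 36 of the 77 higher genes and 13 of the 84 lower genes remained. Erythroid genes, called higher for 4 of 4 tested with a median of 5.72, came from few cells, and the median was 0.65 once cells with transcripts of other lineages or more than 4500 genes had been left out.

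The third comparison read the mesenchyme at both control ages, E14.5 against E13.5. Genes of extracellular matrix rose, with 11 of 12 collagen genes of connective tissue and 7 of 14 elastic fiber genes higher at E14.5. Ecrg4 and Aqp1 rose most among genes with a mean of at least 20 CPM, followed by Nupr1, Scrg1, Ndufa4l2, Fmod, Ifi27 and Htra1, while retinoic acid carriers, Twist2, Runx2 and part of the G2M genes fell. Of 8336 genes tested, 649 (7.79%) were at least 1.5-fold higher and 617 (7.40%) at least 1.5-fold lower, with a median of −0.07. Each age has 1 library, so age cannot be told apart from the library or from its sex. A call here rests on 1 ratio, and a larger part of all genes passed than in comparisons that needed several libraries.

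Ecrg4 (ENSMUSG00000026051, chromosome 1, 43730602 to 43742578), which encodes a secreted peptide precursor, stood at 7.39 CPM at E13.5 and 329.9 CPM at E14.5, 44.3-fold higher (log2 ratio 5.47, 95% interval 5.11 to 5.87). In the library labelled G1KO it stood at 207 and in the library labelled dKO at 221 CPM, so all 3 libraries of E14.5 lay far above E13.5. It rose from 9.08 to 225 CPM in Gdf5-positive neighbors and from 0.671 to 109 CPM in Dcn-positive cells, and from 0 to 36.9 CPM in macrophage-marked cells. The rise of Ecrg4 was therefore not limited to the mesenchyme, and it was seen in macrophage-marked cells too. Aqp1, a water channel, rose from 2.50 to 48.5 CPM (19.0-fold), and the other E14.5 libraries held 33.5 and 32.7 CPM. Htra1 (chromosome 7, 130936111 to 130985660) rose from 40.2 to 307 CPM (7.63-fold), Tm4sf1 from 16.2 to 119.6 CPM (7.36-fold), Fmod, the proteoglycan fibromodulin, from 4.89 to 39.2 CPM (7.95-fold) and Scrg1 from 6.92 to 72.5 CPM (10.4-fold). Interzone genes as a group moved the same way, with 5 of 8 tested called higher (Osr2, Tgfbi, Erg, Htra1 and Sulf1) and a median of 0.77.

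Collagens of connective tissue rose nearly as a list, which holds fibril-forming collagens (Col1a1, Col1a2, Col3a1, Col5a1 and Col5a2, all called) and collagens of other kinds. The median log2 ratio of the 12 tested genes was 1.42, and their summed level was 2230, 4609, 4289 and 3911 CPM in the 4 libraries. Col1a1 rose from 308 to 851 CPM (2.76-fold), Col3a1 from 789 to 1325 CPM (1.68-fold), Col6a1 from 51.2 to 176 CPM (3.43-fold), Col12a1 from 90.5 to 270.4 CPM (2.99-fold) and Col14a1 from 12.2 to 59.8 CPM (4.91-fold). Col26a1, the gene that did not pass, stood at 76.1 and 55.0 CPM. The list sum went from 660.1 to 523 CPM in macrophage-marked cells of the same libraries and from 828.5 to 1350 CPM in endothelial-marked cells, so the background groups differed and the part of free RNA was not tested. In Gdf5-positive neighbors it went from 1675 to 4288 CPM and in Dcn-positive cells from 3553 to 3694 CPM.

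Elastic fiber genes followed in part, with 7 of 14 higher (Eln, Fbn2, Fbln2, Lox, Loxl1, Ltbp3 and Ltbp4), none lower and a median of 0.66. Eln, which encodes elastin, rose from 47.5 to 170.4 CPM (3.59-fold), and Lox, the enzyme that crosslinks collagen and elastin, from 12.9 to 58.8 CPM (4.55-fold). Fbn1 stood short of the fold at a log2 ratio of 0.50. The structural protein and crosslinking enzymes thus rose beside one another. In the Tgfβ list 5 of 13 tested genes were higher (Tgfb3, Tgfbr2, Tgfbi, Ccn2 and Postn) and none lower, with a median of 0.39. Hypoxia genes gave 6 of 14 higher with a median of 0.31, and immediate-early genes 8 of 18 higher with a median of 0.53. Immediate-early genes respond to dissociation as well as to signals, and the part of handling was not tested.

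Chondrocyte genes rose too, 8 of 9 tested, with a median of 1.10 and sums of 1534, 3067, 3768 and 4036 CPM, of which Col2a1 was the most abundant gene. Col2a1 went from 597 to 1075 CPM in the mesenchyme. In macrophage-marked cells Col2a1 went from 629.8 to 2496 CPM and the list sum from 1527 to 6636 CPM. The rise in cells that should lack cartilage transcripts exceeded the one in the mesenchyme, and the part of free RNA was not tested.

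On the falling side, retinoic acid genes gave 4 of 9 lower and 1, Rbp4, higher, with a median of −0.13. Crabp1 fell from 450.0 to 250.5 CPM (1.80-fold lower), Crabp2 from 421 to 201 CPM (2.09-fold) and Aldh1a2 from 41.7 to 8.93 CPM (4.59-fold). The list sum went from 413 to 62.2 CPM in macrophage-marked cells and from 455 to 628 CPM in endothelial-marked cells. Twist2 fell from 133 to 22.7 CPM (5.81-fold). Runx2 and Dlx5, both factors of bone formation and the only tested genes of the osteogenic list, fell from 53.3 to 12.4 CPM (4.25-fold) and from 18.7 to 3.78 CPM (4.75-fold). The bone-forming factors were thus near 10 CPM or below at E14.5. AA465934, a processed transcript of unknown role, fell from 57.2 to 2.41 CPM (22.2-fold), and it fell from 59.1 to 3.54 CPM in Gdf5-positive neighbors and from 57.0 to 2.35 CPM in Dcn-positive cells.

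Genes of the cell cycle were lower in part. In the G2M list 7 of 15 tested were lower (Ccnb1, Cdc20, Ube2c, Birc5, Aurka, Cenpe and Cenpf) and none higher, with a median of −0.54 and sums of 2680, 1775, 1596 and 1609 CPM. Ube2c, a ubiquitin carrier of mitotic exit, fell from 552.5 to 293 CPM (1.88-fold), while Top2a stood at 330.0 and 272 CPM and Mki67 at 164 and 134 CPM, which did not pass. No S phase gene passed, with a median of −0.26 over 15. The sum of the G2M list also went from 2434 to 1710 CPM in macrophage-marked cells and from 1727 to 1463 CPM in endothelial-marked cells. Limb patterning genes split, 4 of 12 higher (Meis3, Osr2, Barx1 and Pax9) and 6 lower (Shox2, Meis1, Osr1, Pitx1, Zfhx3 and Zfhx4).

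Several genes that the naming rule placed among the largest falls came in large part from single cells. S100a9, S100a8, Stfa1, Ngp, Cstdc5 and Camp, genes of granulocytes, stood at 175, 167, 69.9, 45.3, 40.5 and 45.3 CPM at E13.5, and 99.8%, 99.9%, 99.7%, 99.7%, 99.7% and 99.7% of their UMIs lay in 1 cell each. The embryonic globins Hbb-y and Hba-x came to 40.0% and 37.8% from 1 cell, and the muscle actin gene Actc1 to 35.8%. The falls of the granulocyte genes thus describe 1 cell of the E13.5 control. Hbb-y UMIs were present in 29.1% of the selected cells of that library, so its fall was not confined to 1 cell.

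**Figure D3:**
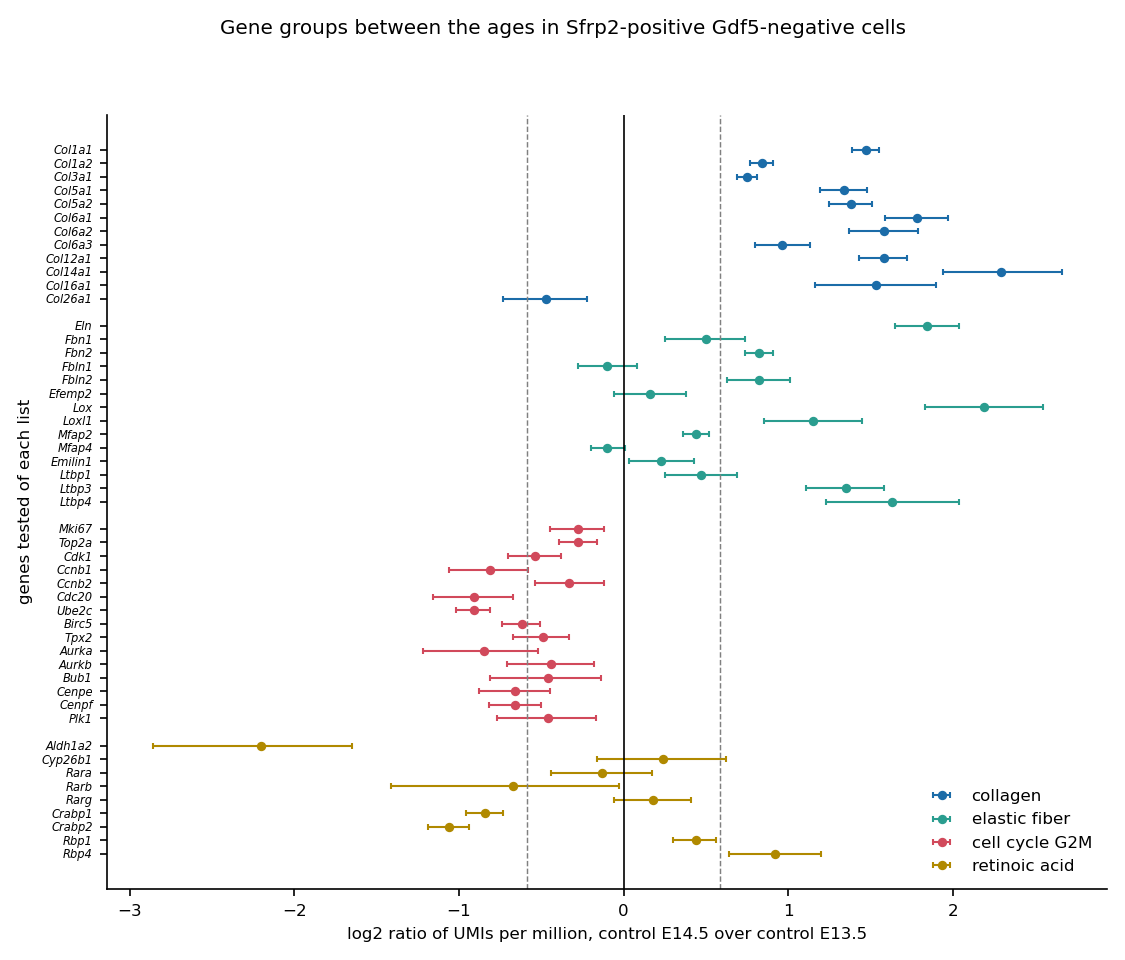
Log2 ratio of E14.5 over E13.5 in the mesenchyme of both control libraries for each tested gene of the collagen, elastic fiber, G2M and retinoic acid lists. Dashed lines mark 1.5-fold, and 11 of 12 collagen genes lay above the upper one.

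The fourth comparison read both mutant libraries of E14.5 against the control of the same age, which they share, so a gene was called only where both ratios passed. Beside Slc2a1, the genes Asns, Mthfd2, Slc7a5, Vldlr and Eif4ebp1 were higher in both, though none of these 5 passed among cells of 4000 to 10000 UMIs, and Htra1, Icam1, Snhg3 and Tagln were lower. Of 8247 genes tested, 42 (0.509%) were called higher and 97 (1.18%) lower, with a median of −0.07. With TMM factors the split was 72 higher and 55 lower, and the median of all genes was 0.01. Without the library labelled G1KO 194 were called higher and 428 lower, and without the library labelled dKO 115 and 248.

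Targets of ATF4, the transcription factor of the amino acid and stress response, gave 4 of 15 tested genes higher, none lower and a median of 0.25 against −0.07 over all genes tested. The list sum was 631.5, 557, 631 and 843 CPM, so it was highest in the library labelled dKO. Asns, which makes asparagine, stood at 38.8, 35.4, 55.4 and 87.7 CPM, 1.56- and 2.47-fold above the E14.5 control (log2 ratios 0.64 and 1.31). Mthfd2, a mitochondrial folate enzyme, stood at 44.7, 32.6, 56.0 and 87.3 CPM (1.71- and 2.67-fold). Slc7a5, a transporter of large amino acids, stood at 6.32, 6.19, 10.1 and 21.5 CPM (1.61- and 3.42-fold, log2 interval −0.14 to 1.61 in the library labelled G1KO) and Vldlr, a lipoprotein receptor, at 7.87, 9.96, 17.4 and 19.8 CPM (1.73- and 1.97-fold). All 4 were higher in the library labelled dKO than in the library labelled G1KO, and in the E13.5 control each lay below both mutant libraries. Eif4ebp1, a repressor of translation outside that list, stood at 54.7, 52.6, 86.3 and 129 CPM.

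The same genes were read in other cells of these libraries. Asns stood at 40.0, 37.6, 46.7 and 109.5 CPM in Gdf5-positive neighbors, at 33.2, 51.2, 95.4 and 175 CPM in Dcn-positive cells and at 15.1, 42.7, 74.9 and 176.5 CPM in macrophage-marked cells. In endothelial-marked cells Asns stood at 22.0, 14.6, 40.5 and 35.9 CPM. Mthfd2 stood at 35.3, 87.4, 119 and 188.5 CPM in macrophage-marked cells, and Eif4ebp1 at 166, 155, 245 and 403 CPM. Slc7a5 stood there at 20.2, 19.4, 16.6 and 51.4 CPM and Vldlr at 15.1, 0, 9.51 and 18.9 CPM. Asns was thus higher in both mutant libraries outside limb mesenchyme too, while Slc7a5 in macrophage-marked cells was higher only in the library labelled dKO. The whole list summed to 705, 995, 915 and 1594 CPM in macrophage-marked cells. The part of free RNA was not tested. Among cells of 4000 to 10000 UMIs only, the mean log2 ratio over both mutant libraries was 0.31 for Asns in place of 0.97, 0.46 for Mthfd2 in place of 1.09, 0.50 for Vldlr in place of 0.89 and 0.54 for Slc7a5 in place of 1.23. These means lie under the log2 of 1.5, so none of the 4 calls held in that range of depth. Over all genes, that range of depth gave 100 higher and 165 lower, of which 10 and 46 were called at all depths too.

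Genes of glucose breakdown showed no call, and the breakdown itself was not measured in these libraries. None of 13 tested glycolysis genes passed in both libraries, with a median of 0.07. Ldha, which makes lactate, stood at 677, 844, 747 and 765 CPM, Gapdh at 1624, 1469, 1571 and 1631 CPM and Pkm at 513.5, 435, 417 and 375 CPM. None of 20 oxidative phosphorylation genes passed (median −0.08). In the hypoxia list Ero1l, an oxidase of the endoplasmic reticulum, was the 1 of 15 tested genes called, at 20.3, 25.1, 43.3 and 39.6 CPM.

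**Figure D4:**
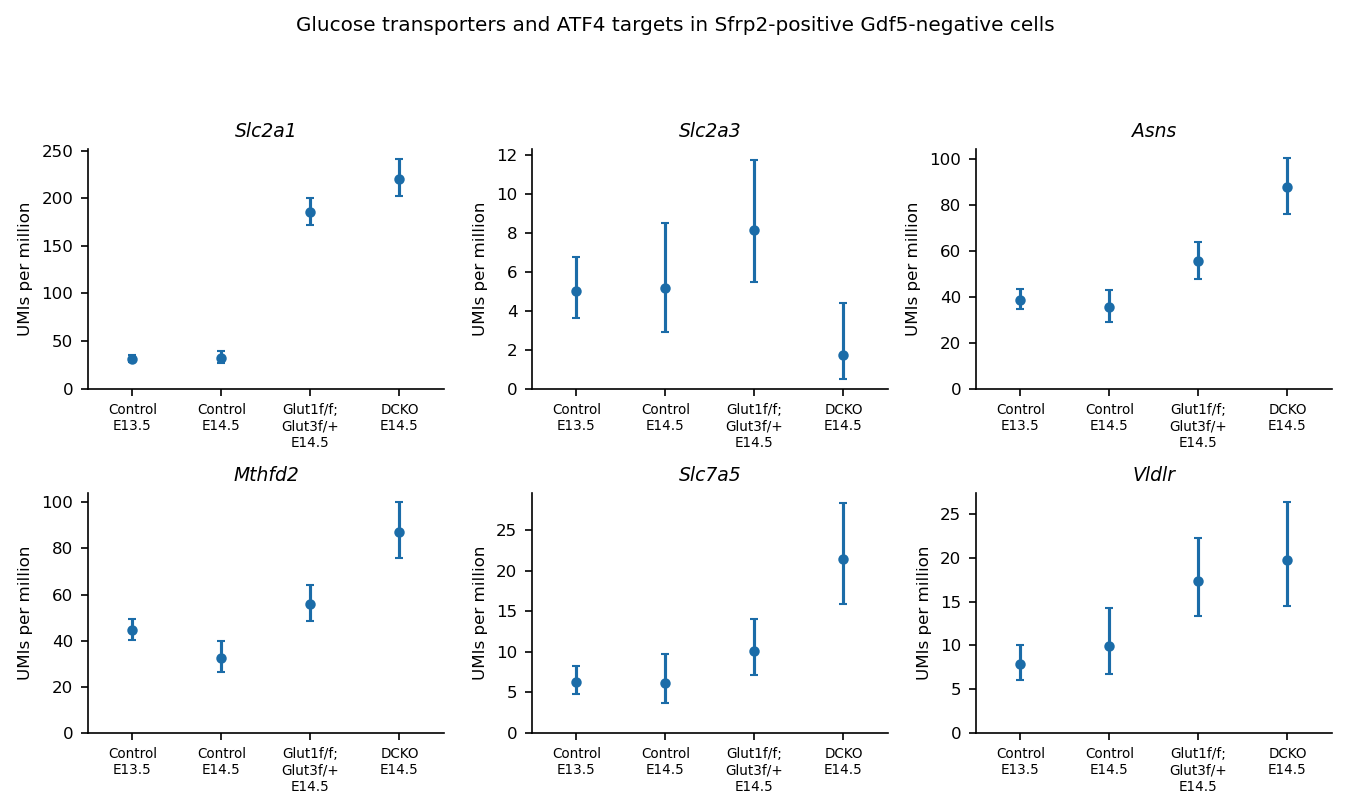
Levels of Slc2a1, Slc2a3, Asns, Mthfd2, Slc7a5 and Vldlr in CPM in the mesenchyme of each library, with 95% Poisson intervals. Slc2a1 stood at 185 and 221 CPM in the mutant libraries against 32.6 CPM in the E14.5 control.

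Promoters of ATF4 target genes were read for their letters only, since 4 genes of that list had been called at full range of depth. The RefSeq table of windows from 250 bases before to 50 bases after the start of each gene (GRCm38.p6) held 22 windows for 18 of the 20 genes of the list. The motif TGATGNAA, the core that ATF4 binds with C/EBP partners, was searched on both strands. It was found in 6 windows of 6 genes (Asns, Chac1, Pycr1, Slc7a11, Trib3 and Vldlr) and in 1304 of all 32851 windows, or 3.97%. Of the 4 genes called higher, Asns and 1 of the 2 Vldlr windows hold a match, the other Vldlr window and that of Mthfd2 have none, and Slc7a5 is named only. The windows of Asns (chr6:7693160-7693459, minus strand) and Vldlr (chr19:27216770-27217069, plus strand) are shown since both genes were called and hold the motif, which is in capitals. It begins 23 bases before the start of Asns and 200 bases before that of Vldlr, where it lies on the other strand and reads TTGCATCA. A match is a description of the letters and not a binding site.
Asns: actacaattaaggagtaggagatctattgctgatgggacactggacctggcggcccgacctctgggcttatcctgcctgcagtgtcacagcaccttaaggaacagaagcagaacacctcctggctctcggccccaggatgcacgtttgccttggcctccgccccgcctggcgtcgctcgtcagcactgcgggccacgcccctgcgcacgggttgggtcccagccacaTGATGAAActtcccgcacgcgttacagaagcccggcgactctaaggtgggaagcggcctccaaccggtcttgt
Vldlr: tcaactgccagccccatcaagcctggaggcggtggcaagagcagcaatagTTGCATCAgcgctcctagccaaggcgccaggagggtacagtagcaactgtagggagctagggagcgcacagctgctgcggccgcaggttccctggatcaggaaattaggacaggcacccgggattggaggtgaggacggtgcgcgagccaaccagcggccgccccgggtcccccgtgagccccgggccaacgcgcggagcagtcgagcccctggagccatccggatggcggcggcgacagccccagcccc

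Htra1 was among the lower genes in both mutant libraries. It stood at 40.2, 307, 165 and 103 CPM, 1.86- and 2.97-fold lower than in the E14.5 control (log2 ratios −0.90, −1.05 to −0.75, and −1.57, −1.78 to −1.36). It was the 1 of 8 tested interzone genes called, and the list had a median of −0.50. In Gdf5-positive neighbors Htra1 stood at 156.5, 629.3, 358 and 176 CPM, the same order, and in Dcn-positive cells at 12.4, 22.1, 28.2 and 20.2 CPM, where no such order was seen. Its mean log2 ratio lay between −1.30 and −1.15 with TMM factors, with levels averaged over cells and with at least 3 Sfrp2 UMIs. It also lay there among cells of 4000 to 10000 UMIs and without cells of other lineages or over 4500 genes. The ratio of either mutant library alone, −0.90 or −1.57, lay outside that range. Tagln, an actin-binding protein of contractile cells, stood at 15.9, 64.6, 32.9 and 15.9 CPM, Icam1, an adhesion molecule, at 7.63, 40.9, 14.3 and 15.9 CPM, and Fhod3, a formin that builds actin filaments, at 4.77, 29.2, 14.6 and 10.8 CPM. The E14.5 control serves in the age ratios as well as here, so a gene that stands high in that 1 library both rises with age and is lower in the mutant libraries, and no link between age and genotype was read from these genes. Col12a1 stood at 90.5, 270.4, 172 and 160.0 CPM and was the only one of 12 collagen genes called. It encodes a collagen that sits on fibrils, and no fibril-forming collagen passed.

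Another lower gene was seen in several groups of cells. Snhg3, a noncoding host of a small nucleolar RNA, stood at 43.0, 39.9, 15.7 and 12.5 CPM in the mesenchyme, at 51.5, 36.1, 16.8 and 10.7 CPM in Gdf5-positive neighbors and at 20.2, 73.8, 20.2 and 5.14 CPM in macrophage-marked cells. It was lower in both mutant libraries in each of these groups. Among patterning and signaling genes, Pax9, a paired box factor, was 1.55- and 4.68-fold lower. Hoxa11 stood at 22.9, 26.1, 17.2 and 16.3 CPM, Bmp4 at 47.7, 65.6, 42.5 and 36.1 CPM and Sostdc1 at 30.2, 30.2, 16.6 and 16.8 CPM. Bmp2 ran the other way at 17.3, 10.7, 16.9 and 21.1 CPM. Bmp4 was thus called lower and Bmp2 higher, out of 11 tested Bmp genes. In the library labelled G1KO, Pax9 lay just past the limit of 1.5-fold. With TMM factors, 55 of all 97 lower calls and all 42 higher calls remained. Among cells of 4000 to 10000 UMIs, 46 of the 97 lower and 10 of the 42 higher calls remained. Lmo1 at 16.5, 40.9, 22.8 and 19.8 CPM, Shisa2 at 29.9, 49.1, 27.6 and 19.4 CPM and the histone gene Hist1h1b at 290.2, 330.5, 187.5 and 180.2 CPM were also named. Apoe stood at 29.0, 81.1, 30.7 and 32.7 CPM, but 41.9% of its UMIs in the E14.5 control came from 1 cell.

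Some higher genes belong to blood and cartilage. Hbb-bs stood at 384, 1381, 2623 and 2969 CPM, of which 73.8%, 97.9%, 43.1% and 51.3% came from 1 cell, and all 4 tested erythroid genes were called higher with sums of 1016, 2187, 4224 and 4982 CPM for the list. Without cells that held transcripts of other lineages or more than 4500 genes, the median of the erythroid list was −1.10 in place of 0.98. Snorc, a membrane proteoglycan of cartilage, stood at 14.3, 30.6, 65.2 and 61.5 CPM and Comp at 2.74, 14.4, 41.1 and 31.8 CPM, while Snorc in macrophage-marked cells stood at 111, 864.5, 599 and 843 CPM. No gene of the chondrocyte list passed in both libraries (median 0.32, sums of 1534, 3067, 3768 and 4036 CPM). Egfl7 was the 1 endothelial gene tested and called, at 25.5, 13.4, 26.4 and 24.5 CPM. The endothelial list summed to 43.0, 24.4, 77.3 and 87.3 CPM, with Egfl7 its most abundant gene and Cdh5 at 0 in the E14.5 control. The part of other cells' RNA in these calls was not tested. Enpp2, which makes lysophosphatidic acid, stood at 12.6, 23.4, 41.6 and 45.6 CPM, and in macrophage-marked cells at 5.04, 11.7, 9.51 and 17.1 CPM.

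The selected cells were last compared among themselves, by which of the genes Cxcl14, Tbx18 and Fbln5 had more UMIs than the other two in a cell. Cxcl14 led in 42.8%, 37.6%, 38.8% and 39.0% of them, Tbx18 in 27.0%, 13.9%, 18.2% and 20.4%, and Fbln5 in 7.87%, 28.1%, 19.3% and 18.3%, while 219, 75, 108 and 73 cells were tied. At E13.5 most cells were thus led by Cxcl14 or Tbx18, and Fbln5-led cells were a larger part in every E14.5 library. The cells were sorted on these genes, so only other genes are described.

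Tbx18-led cells were richer in cartilage transcripts than the rest. They were also deeper, with means of 9966, 12105, 10658 and 9008 UMIs against 8305, 7517, 6815 and 6407 in Cxcl14-led cells and 7578, 7254, 7794 and 6730 in Fbln5-led cells. Of 8257 genes tested, 52 (0.630%) were higher and 30 (0.363%) lower in every library, with a median of 0.01, and 6 of 9 chondrocyte genes were higher with a median of 1.07. Col2a1 stood at 862, 2190, 2668 and 1993 CPM in Tbx18-led cells, at 427, 783, 688 and 990.2 CPM in Cxcl14-led cells and at 704, 688, 1241 and 1389 CPM in Fbln5-led cells. Acan stood at 63.1, 381, 462 and 336 CPM in Tbx18-led cells and at 29.9, 123, 104.5 and 139 CPM in Cxcl14-led cells. Sox9, the factor that starts cartilage differentiation, stood at 315, 400.1, 392 and 358 CPM against 179, 260.3, 194 and 227 CPM. A matrix protein, a proteoglycan and their regulator were thus higher within single libraries, at both ages. Among cells of 4000 to 10000 UMIs 5 of the 9 chondrocyte genes were still higher, with a median of 1.20, but Sox9 was not, and 16 of all 52 higher genes and 8 of the 30 lower ones remained. Cytl1, a secreted protein named by the rule, followed the same pattern at 76.8, 289.9, 356 and 364.5 CPM against 27.9, 126, 85.4 and 117 CPM in Cxcl14-led cells.

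Other genes named as higher in Tbx18-led cells included Lbhd2, Pcp4 and Asrgl1. Lbhd2 stood at 33.5, 151, 131 and 190.5 CPM against 11.5, 41.5, 43.9 and 46.3 CPM in Cxcl14-led cells, and Asrgl1 at 62.3, 72.9, 61.1 and 51.4 CPM against 28.5, 28.9, 19.9 and 19.5 CPM. For Pcp4 77.4% of UMIs in Tbx18-led cells of the library labelled G1KO came from 1 cell. The lower genes were Otor, Lox, Egfl6, Pamr1 and Aspn. Lox stood at 6.46, 16.2, 14.7 and 13.3 CPM in Tbx18-led cells against 16.1, 68.4, 53.9 and 53.7 CPM in Cxcl14-led cells, and Aspn at 4.18, 32.4, 21.5 and 29.8 CPM against 25.6, 55.0, 88.7 and 78.0 CPM. Aspn, which was higher in the mesenchyme than in Gdf5-positive neighbors, was thus lower in Tbx18-led cells than in Cxcl14-led cells.

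Cxcl14-led cells gave 14 higher (0.169%) and 30 lower (0.363%) of 8266 genes, with a median of −0.02, of which 6 and 4 remained among cells of 4000 to 10000 UMIs. Aldh1a2 and Crabp2 were the 2 of 8 tested retinoic acid genes that were higher. Crabp2 stood at 497, 240.0, 302 and 355 CPM in Cxcl14-led cells against 290.4, 139, 145 and 200.5 CPM in Tbx18-led cells and 497, 177, 206 and 260.0 CPM in Fbln5-led cells, which equalled Cxcl14-led cells at E13.5. Named as higher were also Lgals7, Ntf3, Egfl6, Lgi2 and Maf. Ntf3, the neurotrophin NT-3, stood at 39.7, 49.2, 33.2 and 40.2 CPM in Cxcl14-led cells, at 23.6, 9.72, 13.6 and 16.6 CPM in Tbx18-led cells and at 18.9, 24.1, 23.3 and 22.3 CPM in Fbln5-led cells. Egfl6 stood at 141, 145, 161 and 166 CPM in Cxcl14-led cells and at 65.4, 30.8, 32.8 and 48.1 CPM in Tbx18-led cells, while Fbln5-led cells held 87.4, 136.5, 102 and 176 CPM. Both genes were thus higher in Cxcl14-led than in Tbx18-led cells of every library. Kank1, Lbhd2, Sox5 and Fibin were among those named as lower. Sox5, a partner of Sox9 in cartilage, stood at 26.4, 48.2, 58.9 and 52.4 CPM against 92.7, 147, 141 and 131 CPM in Tbx18-led cells.

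Fbln5-led cells gave 16 higher (0.194%) and 14 lower (0.169%) of 8267 genes, with a median of 0.02. Named as higher were Gria3, Nefl, Pamr1, Htra1 and Tagln, and at E13.5 Nefl rests on 9 UMIs, of which 77.8% came from 1 cell. The mural gene Rgs5 was higher too, and the 4 tested endothelial genes had a median of 1.46 without a call. Among cells of 4000 to 10000 UMIs, 6 of the 16 higher and 4 of the 14 lower genes remained. Htra1 stood at 65.1, 498, 232 and 183 CPM in Fbln5-led cells, at 29.6, 278, 208 and 117 CPM in Cxcl14-led cells and at 50.6, 107, 40.7 and 24.9 CPM in Tbx18-led cells. Tagln stood at 30.9, 134, 59.8 and 24.8 CPM in Fbln5-led cells and at 13.7, 4.86, 3.39 and 4.97 CPM in Tbx18-led cells. In Fbln5-led cells the order of the E14.5 libraries in Htra1 and Tagln was that of all selected cells, so lower values in the mutant libraries were present within this group as well. In Cxcl14-led cells Tagln stood at 16.1, 39.5, 34.8 and 24.4 CPM, and in Tbx18-led cells it showed no such order, on 3 UMIs in each E14.5 library. Fbln5-led cells were also a larger part of the E14.5 control, at 28.1% against 19.3% and 18.3%, and the part of this in the pooled levels was not tested. Pamr1 stood at 20.6, 89.7, 80.2 and 79.3 CPM in Fbln5-led cells and at 8.36, 8.10, 11.3 and 8.29 CPM in Tbx18-led cells. Wnt4, a Wnt ligand of the forming joint, was lower at 32.6, 34.8, 32.1 and 64.4 CPM against 85.9, 117, 93.7 and 98.8 CPM in Cxcl14-led cells. The other named falls, Hbb-bs, Hbb-bt, Hba-a1 and Hba-a2, are the globins of few cells described before. None of 14 tested elastic fiber genes other than Fbln5 passed in Fbln5-led cells, with a median of 0.22.

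The selected cells also held droplets with transcripts of other lineages. Cells with UMIs of blood, muscle, vessel, nerve or skin markers above the limits set for each, or with more than 4500 genes, numbered 95, 23, 28 and 16 of 979, 367, 456 and 328. Of them, 76, 20, 21 and 6 passed the limit on genes, which by itself is no sign of another lineage. Muscle markers were found in 16, 0, 3 and 0, glial markers in 11, 1, 1 and 6, endothelial markers in 7, 1, 4 and 3 and erythroid markers in 5, 1, 4 and 2. Skeletal muscle markers summed to 147, 14.8, 39.4 and 11.2 CPM, with Actc1, Tnnt1, Actc1 and Tnnt1 the most abundant and Pax7 at 0 in the E14.5 libraries. The E13.5 control had the highest muscle sum.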

How the data were processed

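The authors called cells and deposited counts of UMIs per gene and cell without normalization, made with Cell Ranger 6.1.2 as the file headers state. The submitters' notes name mm10, and positions come from GENCODE M21 (GRCm38). Members and lists were chosen with earlier results of these data known, and the 10 added alternatives were chosen after seeing the data. UMIs were summed per group and library and scaled to CPM with Python 3.11.15, numpy 2.4.6, scipy 1.17.1 and pandas 2.3.3, and TMM factors came from edgeR 4.0.16 in R 4.3.3. Log2 ratios carry a prior of 0.5 counts and the exact conditional 95% interval, with Poisson limits for levels and Clopper-Pearson limits for shares. A gene was called past 1.5-fold in the same direction in all libraries compared, among genes with a mean of at least 10 CPM. Named genes are the 10 highest and 10 lowest by smallest ratio at a mean of at least 20 CPM (5 for subsets), and genes of 40 lists. The lists were written from general knowledge, except that the interzone list also holds genes the study named from these data, such as Gas1, Htra1 and Sulf1. Thinned shares average 20 draws. Doublets were kept.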

Additional observations from a re-analysis of the deposited data

Results flagged for a closer look

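Some genes called in the mesenchyme moved the opposite way in the cells set beside it, and in each case the difference was not tested. From E13.5 to E14.5 in the control libraries, log2 ratios in the mesenchyme and in Dcn-positive cells were −3.38 and 0.82 for Actc1, 1.47 and −0.70 for Cdon, −2.25 and 1.05 for Dlx5, and 0.94 and −1.91 for Efnb2. They were 0.77 and −1.43 for Fgf18, 0.65 and −0.95 for Fst, and 0.77 and −1.56 for Osr2. In the mesenchyme and in Gdf5-positive neighbors they were 1.85 and −2.56 for Hbb-bs and 1.35 and −1.26 for Pax9. Dcn-positive cells of these libraries also differed, with chondrocyte list sums of 2386 and 13631 CPM and median depths of 7652 and 13322 UMIs.

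In the mutant libraries against the E14.5 control, Egfl7 had log2 ratios of 0.97 (labelled G1KO) and 0.87 (labelled dKO) in the mesenchyme and of −0.81 and −1.99 in Gdf5-positive neighbors. Snorc had 1.09 and 1.01 in the mesenchyme and −1.17 and −1.11 in Dcn-positive cells. These differences were not tested either. The 38 neighbors of the library labelled dKO and the few cells that held most globin and Actc1 UMIs limit the ratios that rest on them.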

How the results depend on the processing

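No paired analysis was possible between ages or genotypes because each had 1 library. Cell groups were compared within each library, as ratios without a test. Of 1311 values for named genes under alternatives, 1085 stayed within the counting interval, 192 moved outside it and 34 turned sign. Of 101 list medians, 84 moved by less than 0.5 times the log2 of 1.5, 10 by more and 7 turned sign. Causes of the changes were not tested, except that another minimum level changed the number of genes tested.

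Shares of the mesenchyme (E13.5 control, E14.5 control, labelled G1KO, labelled dKO) were 6.23%, 3.40%, 3.34% and 2.40% with at least 3 Sfrp2 UMIs, 4.85%, 2.32%, 2.13% and 1.31% with at least 3 of Cxcl14, Tbx18 and Fbln5, and 11.1%, 6.46%, 6.83% and 4.99% without both upper limits. Thinned they were 5.67%, 3.11%, 2.85% and 1.81%, and with 1000 to 6000 genes and at most 5% mitochondrial UMIs the E13.5 share was 8.64%.

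Counts higher and lower, in the order Gdf5-positive neighbors, Dcn-positive cells, age and mutants, were 27 and 18, 22 and 35, 235 and 112, and 9 and 8 at 2-fold. They were 16 and 23, 30 and 24, 207 and 171, and 10 and 10 at 50 CPM, and 165 and 185, 243 and 191, 1910 and 1537, and 469 and 598 at 1 CPM. In the control libraries alone the first comparisons gave 152 and 171, and 149 and 135. With each library left out in turn, they gave 83 to 115 higher and 85 to 119 lower (most without the library labelled dKO), and 83 to 361 and 85 to 222 (most without the E13.5 control). The mutants gave 194 and 428 without the library labelled G1KO, 115 and 248 without that labelled dKO, 72 and 55 with TMM factors, 64 higher with 3 Sfrp2 UMIs, and 100 and 165 among cells of 4000 to 10000 UMIs.

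Against Dcn-positive cells with at most 3 UMIs of Acan, Matn1 and Col9a1, 138 genes were higher and 136 lower, the chondrocyte median was 3.04 and log2 ratios turned to 3.72 (Acan), 1.99 (C1qtnf3), 3.04 (Col9a1), 2.21 (Comp), 0.67 (Cth), 1.55 (Epyc), 2.30 (Fgfr3), 3.91 (Hapln1), 1.08 (Ihh), 2.74 (Lgals3), 4.42 (Matn1), 2.81 (Matn3), 2.37 (Nog), 1.57 (Scin) and 4.08 (Snorc).

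With 3 Sfrp2 UMIs, age ratios turned to 1.43 (Camp), 1.43 (Ngp) and −4.09 (Hbb-bs), and the Bmp and Eph medians to 0.01 and 0.05. Among cells of 4000 to 10000 UMIs, age values turned to 4.20 (Camp), 1.39 (Ngp), −0.19 (Fzd9), 0.06 (Bmp median) and 0.03 (retinoic acid median), Nog against Dcn-positive cells to 0.69, and mutant values to −7.39 (Hba-a1), −6.93 (Hba-a2), −7.05 (Hbb-bs), −6.37 (Hbb-bt) and −6.99 (erythroid median). Without cells of other lineages or over 4500 genes, age values turned to 0.53 (Actc1) and 4.23 (Camp), Hbb-bs against neighbors to −0.08, Hba-a2 against Dcn-positive cells to −0.16, and mutant values to −1.35 (Hba-a1), −0.86 (Hba-a2), −0.85 (Hbb-bs), −1.65 (Hbb-bt) and −1.10 (erythroid median). There Cxcl14-led cells had 9 higher genes and Fbln5-led cells 9 lower. Among cells of 4000 to 10000 UMIs, Cxcl14-led cells had 9 higher, Tbx18-led cells 15 lower and Fbln5-led cells 30 higher and 22 lower.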

Other observations

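Limits of these values follow from the design. Each condition had 1 library, so differences between conditions cannot be told apart from differences between libraries, and intervals cover counting error only. Among E14.5 libraries, sex and genotype cannot be told apart. Cells were selected on UMIs of the genes of the rule, and a cell at a median depth of 5509 to 7095 UMIs is not shown to lack Gdf5 by holding none of its UMIs. Position beside the joint was not measured. Transcripts of other lineages were found among the selected cells, and the part of RNA from other cells in the calls was not tested.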
